A study of Oryctolagus cuniculus with 2 samples.

Results

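The amacrine and horizontal module scores are 2 of the 9 per-nucleus cell type scores deposited with a single-nucleus RNA-seq study of rabbit retina, and both were taken here for all 6542 of 6542 nuclei. A module score gives the mean log-normalised level of a list of genes in 1 nucleus less that of control genes, so a value near or under 0 means that the list stood no higher than the controls. The lists behind both scores were not used here, and no gene is named. Because the values are on a log scale, they are given as medians and differences, with no folds.

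The nuclei came from wild-type rabbits (3484 nuclei) and from CLRN1 knockout rabbits (3058 nuclei), all 10 months old. CLRN1 encodes clarin-1, a membrane protein affected in a form of human Usher syndrome. Per the labels, a 5 mm punch of the visual streak was taken 2 to 3 mm ventral of the medullary rays in each animal, and the nuclei of 3 rabbits of a genotype were mixed and captured as 1 droplet library. The labels state that nuclei were later traced to single rabbits by genetic variants, but the values were analysed here by library only. Each genotype is therefore 1 library here, no test was made, and effects of genotype, of the pooled animals and of the library cannot be told apart.

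Amacrine and horizontal cells are the inhibitory interneurons of the retina. Horizontal cells spread feedback sideways among photoreceptor terminals in the outer plexiform layer, and amacrine cells, a class of many types, shape the signals that bipolar cells pass to ganglion cells in the inner plexiform layer. Both classes arise from related progenitors and share part of their gene expression.

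The library of wild-type nuclei held 6916018 unique molecular identifiers (UMIs, each 1 captured transcript) with a median of 1175.5 per nucleus, and the knockout library held 8233524 with a median of 1552.5. The libraries shared 5 cell barcodes. The authors' 26 cluster numbers and 7 cell types were used as deposited: 1029 nuclei in 11 clusters were labelled amacrine and 181 nuclei in 3 clusters horizontal. Whether the authors assigned cell types with the help of these scores is not stated in the labels or headers, so a high own score in a type is given as a description and not as a finding. The CLRN1 level was not analysed here, so the genotype labels were not checked against it.

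Most nuclei had small negative values of both scores. Over all nuclei the median amacrine score was −0.08 and the median horizontal score −0.06. A value above 0 was found for the amacrine score in 1656 nuclei (25.3%), for the horizontal score in 1004 nuclei (15.3%), for both in 422 nuclei (6.45%) and for neither in 4304 nuclei (65.8%). The negative values followed depth: among nuclei at or below 0, the median amacrine score was −0.07 under 1000 UMIs and −0.19 from 4000 UMIs, and the median horizontal score −0.05 and −0.15. A limit of 0.5, well above this band, was used for high values. It was passed by 393 nuclei in the amacrine score and 249 in the horizontal score. Within 0.1 of the limit lay 311 and 235 nuclei, so the limit cuts through a range of values. Some clusters lay beyond it, with a lower quartile of 1.31 in the horizontal score of cluster 20 and of 0.73 in the amacrine score of cluster 22. For the horizontal score, what passing 0.5 means differed with depth. In rod cluster 0, at a median of 663 UMIs, all 32 nuclei above 0 passed it, and in rod cluster 2, at 3968 UMIs, 21 of 250. For the amacrine score these were 2 of 67 and 11 of 205.

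High amacrine values lay almost wholly in nuclei labelled amacrine, and high horizontal values did not lie mainly in nuclei labelled horizontal. Of the 393 nuclei above 0.5 in the amacrine score, 367 (93.4%) were labelled amacrine and 22 were rods. Of the 249 nuclei above 0.5 in the horizontal score, 80 (32.1%) were labelled horizontal, 90 (36.1%) were rods, 33 were amacrine and 30 (12.0%) were bipolar. The 90 rods had a median of 923.5 UMIs, a median horizontal score of 0.65 and a median rod score of 1.04, and they were 2.09% (95% exact binomial interval 1.69 to 2.57%) of all rods. In cones, photoreceptors that should lack the score, 1.97% passed the limit (0.73 to 4.23%), with median depths of 947 UMIs in rods and 1676 in cones, against 44.2% (36.8 to 51.8%) of horizontal nuclei at 2927. Above a value of 1 the separation was sharper: 53 of 55 nuclei in the amacrine score were labelled amacrine, and 61 of 72 in the horizontal score were labelled horizontal.

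**Figure D1:**
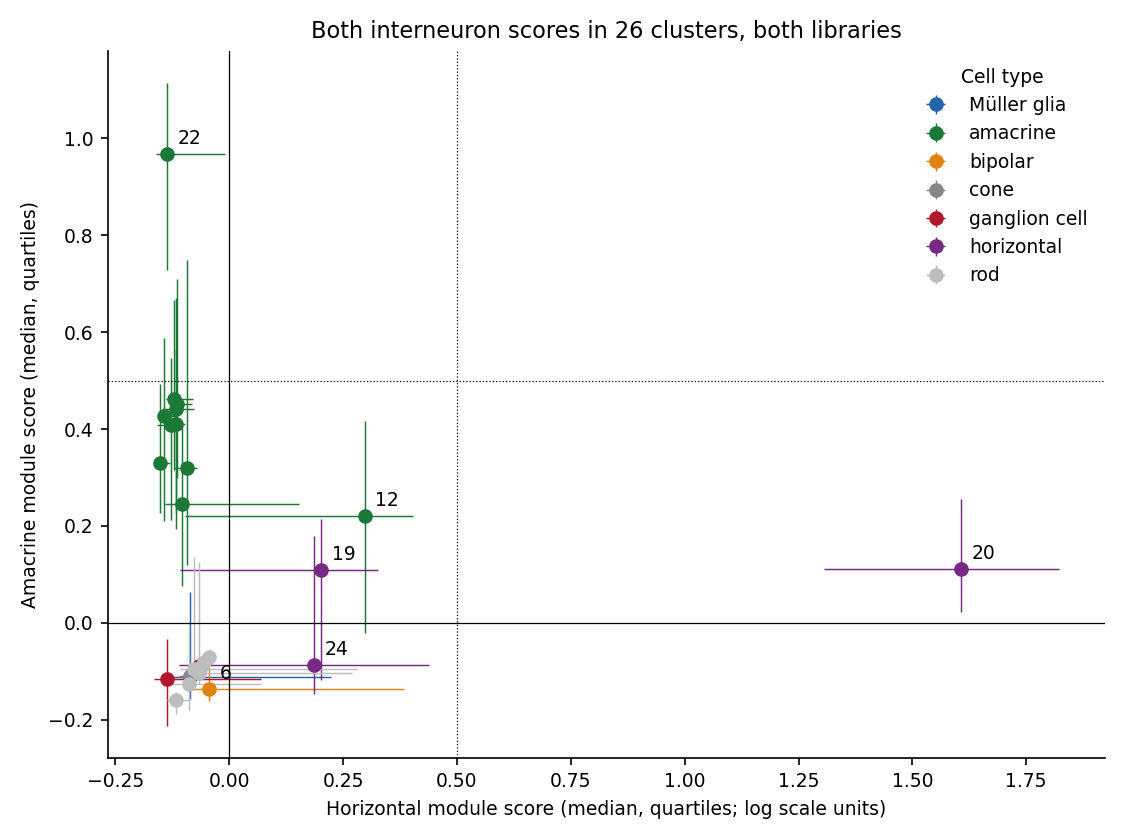
Median horizontal score (x axis) against median amacrine score (y axis), both in log-scale score units, of the 26 clusters over both libraries, with lines from the lower to the upper quartile, colours by deposited cell type and dotted lines at 0.5. Cluster 22 lies alone above 0.5 in the amacrine score (0.97), cluster 20 lies alone above 0.5 in the horizontal score (1.61), and no cluster lies above 0.5 in both.

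All 11 amacrine clusters had a median amacrine score above 0, but they differed widely. Cluster 22 (43 nuclei) stood apart, at a median of 0.97 (lower and upper quartile 0.73 and 1.11), and 40 of its nuclei passed 0.5. It was followed by clusters 23 (0.46), 17 (0.45), 5 (0.44), 26 (0.43), 11 (0.41) and 21 (0.41), whose 95% intervals of the median overlapped one another. Clusters 18 (0.33) and 15 (0.32) came next, and clusters 13 (0.24) and 12 (0.22) were the lowest. Cluster 15 had the widest spread of the 11, with an SD of 0.44 across its 89 nuclei and quartiles of 0.12 and 0.75. These intervals come from order statistics over nuclei and cover counting error only.

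The amacrine score also reached above 0 in clusters that are not labelled amacrine. Its median was 0.11 in horizontal cluster 19 (0.02 to 0.14) and 0.11 in horizontal cluster 20 (0.06 to 0.19). In horizontal cluster 24 it was −0.09, with a wide interval of −0.13 to 0.13. In the 12 clusters of the other 5 types it was below 0, from −0.07 in rod cluster 0 to −0.16 in rod cluster 16. Bipolar nuclei had a median of −0.14 and none of the 222 passed 0.5 (exact upper bound 1.65%).

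By cluster median, the horizontal score was highest in cluster 20. This cluster (69 nuclei) had a median of 1.61 (quartiles 1.31 and 1.82), and 65 of its nuclei passed 0.5. The other horizontal clusters were far lower, at 0.20 (−0.06 to 0.27) in cluster 19 and 0.19 (−0.09 to 0.35) in cluster 24, and their intervals held 0. Amacrine cluster 12 had a higher median than both, 0.30 (0.24 to 0.34), with intervals that overlapped those of clusters 19 and 24. The remaining 22 clusters had medians below 0. Bipolar nuclei had the highest upper quartile outside these 4 clusters, 0.38 around a median of −0.04, and 30 of the 222 passed 0.5.

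The same clusters stood out when each score was ranked among the 9 scores of a cluster. The amacrine score had the highest median in 9 of the 11 amacrine clusters. In cluster 12 the horizontal score was higher (0.30 against 0.22), and in cluster 15 the rod score was (0.37 against 0.32). The horizontal score had the highest median in all 3 horizontal clusters, and the amacrine score was second in clusters 19 and 20. Beside its amacrine score of 0.33, cluster 18 also had a Müller glia score of 0.20.

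By the limit of 0.5 on the median, 1 cluster carried the amacrine score alone (cluster 22), 1 the horizontal score alone (cluster 20), none both, and 24 clusters with 6430 nuclei neither. This count depends on the limit. At 0.25, or at the 95th percentile of rods (0.25 and 0.29), 9 clusters carried the amacrine score, clusters 12 and 20 the horizontal score and none both. At 0, 10 clusters carried the amacrine score alone, cluster 24 the horizontal score alone, clusters 12, 19 and 20 (257 nuclei) both, and 12 clusters neither.

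Within nuclei, values above 0 in both scores were most frequent in the clusters that carried both at that limit. This follows in part from the rule, since such a cluster has both medians above 0, and is a description only. In cluster 20, 76.8% of nuclei (65.1 to 86.1%) were above 0 in both, 21.7% in the horizontal score alone and 1.45% in the amacrine score alone. In cluster 12 the share above 0 in both was 47.5% (38.2 to 56.9%), and 27.1% were above 0 in the amacrine score alone and 16.1% in the horizontal score alone. In cluster 19 35.7% (24.6 to 48.1%) were above 0 in both, and 26.2% (13.9 to 42.0%) of cluster 24. Amacrine clusters 13 (28.2%), 22 (25.6%), 23 (23.3%) and 5 (19.0%) also held nuclei above 0 in both, whereas clusters 15 and 21 held none. In rods the share was 2.63%. High values of both were rare: 7 nuclei passed 0.5 in both scores, 2 from the wild-type and 5 from the knockout library, of which 4 lay in cluster 5 and 1 each in clusters 2, 12 and 23. Their amacrine scores were 0.58 to 1.06 and their horizontal scores 0.51 to 0.92, at a median of 3114 UMIs (1352 to 7878).

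**Figure D2:**
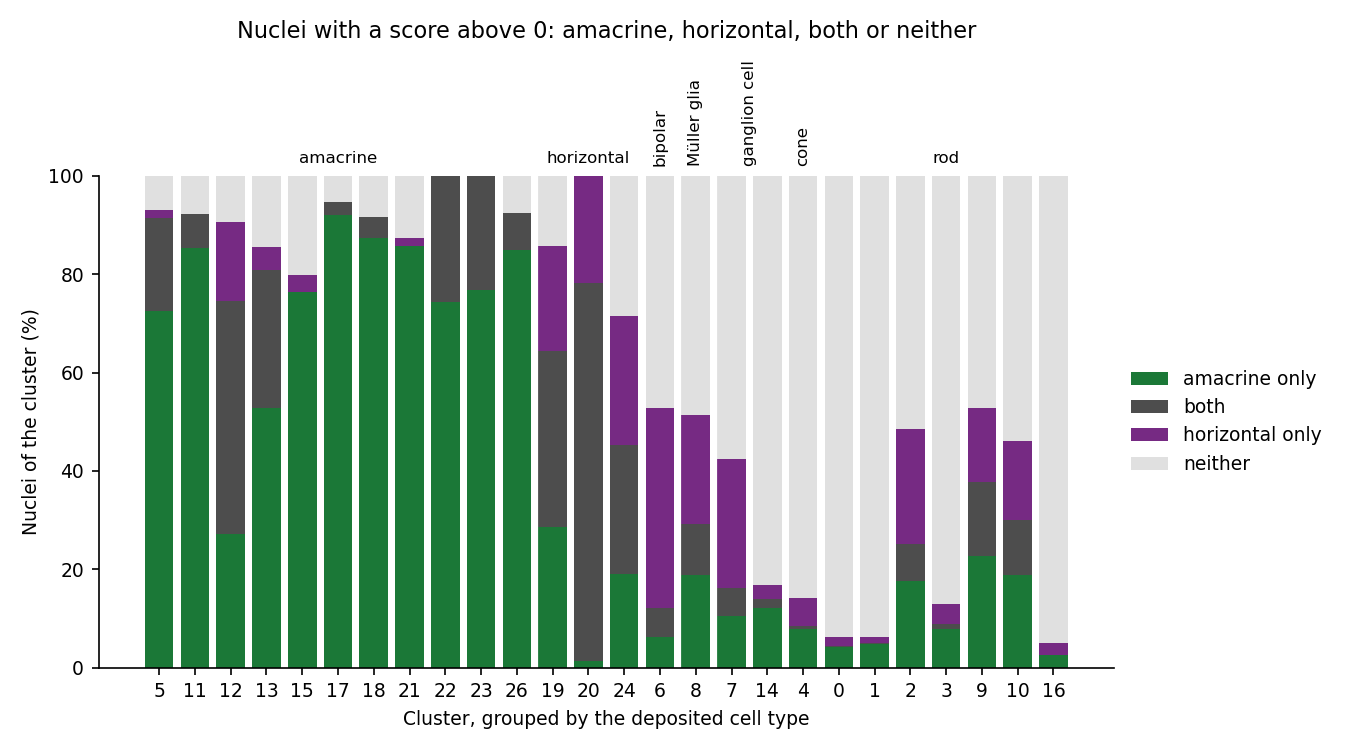
Share of the nuclei of each cluster (y axis, percent) above 0 in the amacrine score only, in both scores, in the horizontal score only or in neither, with the 26 clusters grouped by deposited cell type on the x axis. The dark band of nuclei above 0 in both is widest in cluster 20 (76.8%) and cluster 12 (47.5%).

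Deeper nuclei were more often above 0 in rods, amacrine and horizontal nuclei, but not in every type: in cones the share above 0 in the amacrine score was 4.26% under 1000 UMIs and 5.88% from 4000 UMIs, with overlapping intervals. In rods, the share above 0 in the amacrine score was 4.75% under 1000 UMIs and 27.7% from 4000 UMIs, and in the horizontal score 2.26% and 38.2%. In amacrine nuclei the median amacrine score was 0.29, 0.28, 0.39 and 0.48 in the 4 bins of rising depth. In horizontal nuclei from 1000 UMIs the median horizontal score was −0.07, 0.35 and 1.50, which moved with the makeup of the type: cluster 20 held 5 of the 44 nuclei of 1000 to under 2000 UMIs, 22 of the 82 of 2000 to under 4000 UMIs and 41 of the 49 from 4000 UMIs. Within cluster 20 the median was 1.46, 1.58 and 1.67 in these bins. Comparisons between clusters were therefore repeated among nuclei of 2000 to under 4000 UMIs, where rods had a median of 2629 UMIs, amacrine nuclei 2822 and horizontal nuclei 2937.

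**Figure D3:**
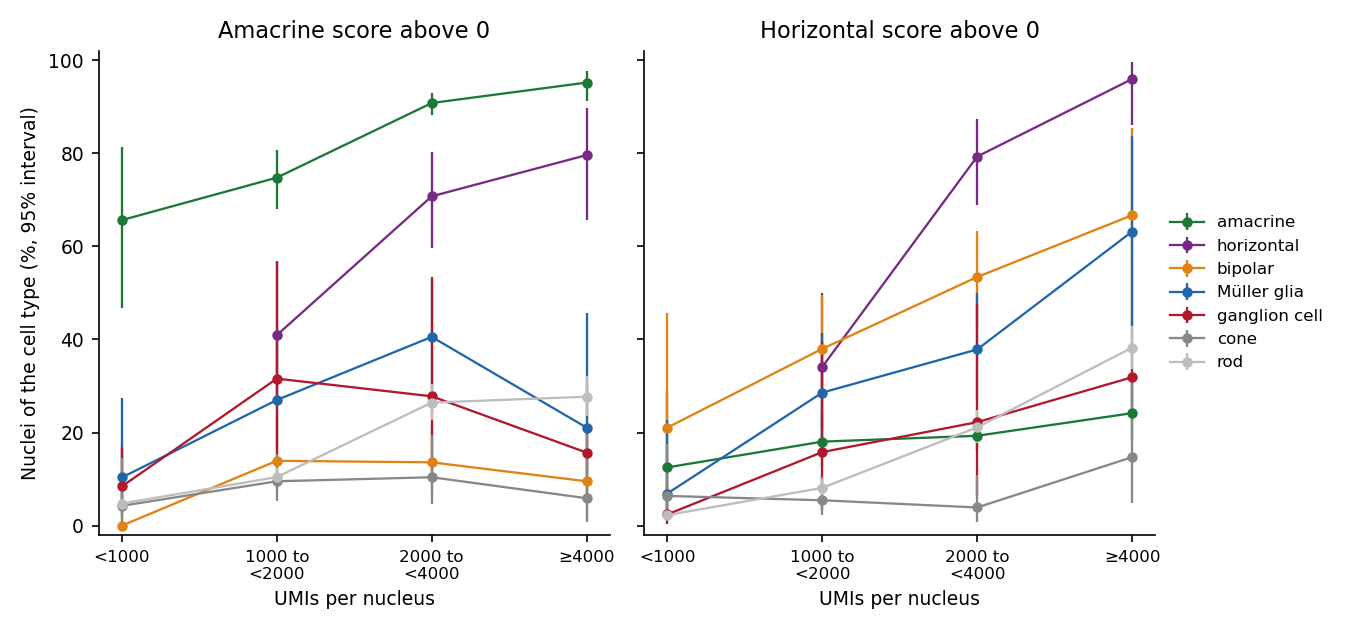
Share of nuclei above 0 (y axis, percent, bars are 95% exact binomial intervals) in the amacrine score (left) and the horizontal score (right) against UMIs per nucleus in 4 bins (x axis), by deposited cell type over both libraries, for bins of 10 or more nuclei. Rods rise from 4.75% to 27.7% in the amacrine score and from 2.26% to 38.2% in the horizontal score.

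At this matched depth, rods were above 0 in the amacrine score in 26.4% of nuclei (22.7 to 30.4%) and cones in 10.4% (4.59 to 19.4%). All 11 amacrine clusters lay above rods, with intervals apart, from 80.0% in cluster 12 to 100% in clusters 22 and 23. All 3 horizontal clusters also lay above rods, with 81.8% of cluster 20 (59.7 to 94.8%), 68.3% of cluster 19 (51.9 to 81.9%) and 63.2% of cluster 24 (38.4 to 83.7%). Bipolar nuclei lay below rods, at 13.6% (7.63 to 21.8%), with an interval that overlapped that of cones. Among the other clusters, rod cluster 9 lay above the rods as a whole, at 50.6% (39.5 to 61.6%). The size of the values differed from the frequency: the median score of nuclei above 0 was 0.42 in amacrine nuclei, 0.14 in horizontal nuclei and 0.13 in rods.

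For the horizontal score at matched depth, rods were above 0 in 21.1% of nuclei (17.7 to 24.8%) and cones in 3.90% (0.81 to 11.0%). The 3 horizontal clusters lay above rods, with 100% (84.6 to 100%) of cluster 20, 73.7% of cluster 24 and 70.7% of cluster 19, and so did amacrine cluster 12, at 61.4% (49.0 to 72.8%). Bipolar nuclei, at 53.4% (43.3 to 63.3%), Müller glia, at 37.8% (26.8 to 49.9%), and rod cluster 9, at 41.2% (30.6 to 52.4%), also lay above rods. The other amacrine clusters did not: clusters 11, 15, 17, 18, 21 and 26 lay below rods, at 0% to 7.89%, with intervals that overlapped that of cones. The intervals of clusters 5, 13, 22 and 23 overlapped that of rods. Of these, clusters 5, at 19.1% (13.2 to 26.2%), and 13, at 27.8% (18.3 to 39.1%), lay above cones, and the intervals of clusters 22 and 23 overlapped that of cones. Bipolar nuclei were thus above 0 more often than rods in the horizontal score and less often in the amacrine score, with intervals apart in both. Against cones, their interval lay above in the horizontal score and overlapped in the amacrine score. The rods used as background are themselves mixed, since in rod cluster 1 the shares at this depth were 8.25% for the amacrine and 3.09% for the horizontal score. Free RNA and doublets were not examined here, and their part in these shares was not tested.

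**Figure D4:**
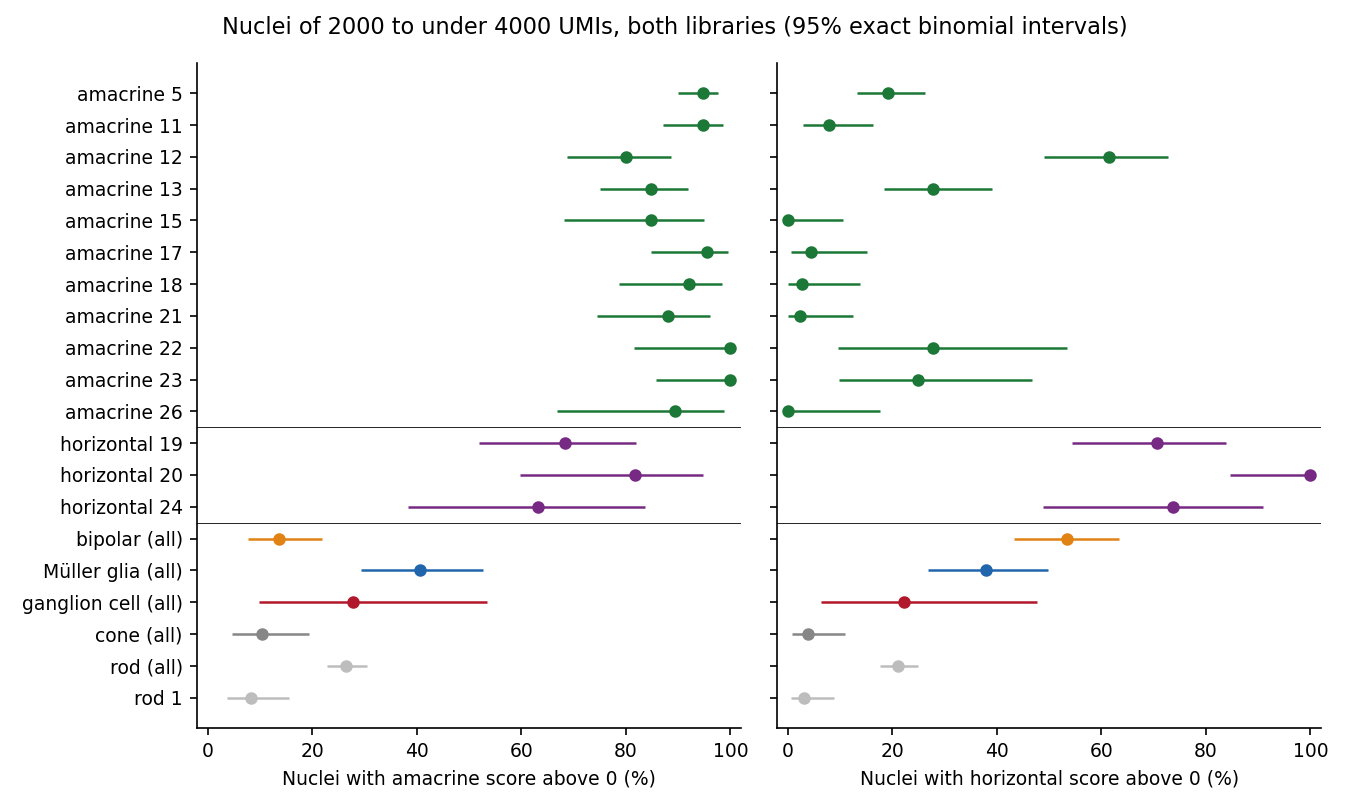
Share of nuclei of 2000 to under 4000 UMIs above 0 (x axes, percent, with 95% exact binomial intervals) in the amacrine score (left) and the horizontal score (right), for each amacrine and horizontal cluster, 5 other cell types and rod cluster 1. Horizontal clusters lie at 63.2% to 81.8% on the left. On the right, cluster 20 lies at 100%. The intervals of amacrine cluster 12 (61.4%) and bipolar nuclei (53.4%) overlap there those of horizontal clusters 19 (70.7%) and 24 (73.7%).

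How both scores varied together across nuclei depended on the cell type, on the measure and on the depth of the nuclei taken. Within the 26 clusters, Pearson's r between them had a median of −0.01 and ranged from −0.27 to 0.26, below 0 in 14 clusters and above 0 in 12. Spearman's rho had a median of 0.01 and ranged from −0.30 to 0.69, the highest in rod cluster 16 (78 nuclei). By cell type, rho was 0.24 in the 4296 rods and 0.43 in the 305 cones, where r was 0.06 and 0.11, and −0.20 in the 1029 amacrine nuclei, where r was −0.15. Over all 6542 nuclei both measures were 0.00, while rho was 0.17 under 1000 UMIs and −0.16 from 2000 to under 4000 UMIs. Both scores of a nucleus share its library and depth, which moves the values at or below 0, and nuclei are no replicates, so no p is given. In cluster 12 the horizontal score was above 0 in 63.6% of the nuclei above 0 in the amacrine score and in 63.3% of the others. In bipolar nuclei these shares were 48.1% and 46.2%. In rods they were 23.7% and 7.88%, where the median depth was 2232 UMIs in the former and 908 in the latter. In the authors' embedding, cluster 20 lay nearest to cluster 24 (distance 2.37 in embedding units), with amacrine cluster 13 next (3.12), while cluster 19 lay nearest to amacrine cluster 21 (2.62).

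The amacrine score of amacrine nuclei was higher in the knockout library. Its median was 0.33 (0.30 to 0.37) in 560 wild-type nuclei and 0.44 (0.40 to 0.47) in 469 knockout nuclei, a difference of 0.10, with intervals apart. The knockout median was the higher in 11 of 11 amacrine clusters, by 0.03 to 0.33, although the intervals overlapped in each of the 11. At 2000 to under 4000 UMIs it was the higher in 9 of the 11, and within UMI bins in 7 of the 8 with a value, the exception being cluster 21 at −0.08. Among the other 15 clusters it was higher in 7 at unmatched depth. Over all 26 clusters it was higher within UMI bins in 12 of the 21 with a value. Outside amacrine nuclei this difference was 0.20 in Müller glia and 0.15 in rod cluster 9, higher in 2 of 2 bins each. In bipolar nuclei and in cones it was −0.02, higher in 0 of 2 bins each. Median intervals were apart in clusters 2, 4 and 6 alone, lower in the deeper knockout nuclei (−0.03, −0.03 and −0.04). Depth moved with the library: the median was 2522.5 UMIs in wild-type and 3217 in knockout amacrine nuclei. From 2000 to under 4000 UMIs the medians were 0.36 (0.32 to 0.41) and 0.41 (0.38 to 0.46). Within UMI bins the weighted difference was 0.06, higher in 3 of 3 bins, with intervals that overlapped in each bin, and knockout nuclei were also the deeper ones inside a bin, for example 2775 against 2924 UMIs in the bin from 2000 to under 4000. How much of the difference goes with depth was not tested further.

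Among amacrine clusters the difference was largest in cluster 15. Its median was 0.25 (−0.09 to 0.32) in 49 wild-type nuclei and 0.58 (0.31 to 0.82) in 40 knockout nuclei, and 0.45 apart within UMI bins. The median depths of these nuclei were 1588 and 2158 UMIs. The share above 0 was 63.3% in the wild-type and 92.5% in the knockout library, the only amacrine cluster with intervals of this share apart. In cluster 22, the cluster with the highest score, the medians were 0.77 (0.56 to 1.00) and 1.02 (0.96 to 1.13). Its median depths were 2817.5 and 4292 UMIs, and no UMI bin held 10 nuclei of each library, so it has no value within bins. Over all amacrine nuclei the share above 0 in the amacrine score was 83.6% (80.2 to 86.5%) and 93.0% (90.3 to 95.1%), and 5.75 percentage points higher in the knockout library within UMI bins. In rods, the background, it was 10.5% and 11.7%, at unmatched median depths of 869 and 1067 UMIs, against 2522.5 and 3217 in amacrine nuclei. Without cluster 15 the difference of medians over amacrine nuclei was 0.09.

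**Figure D5:**
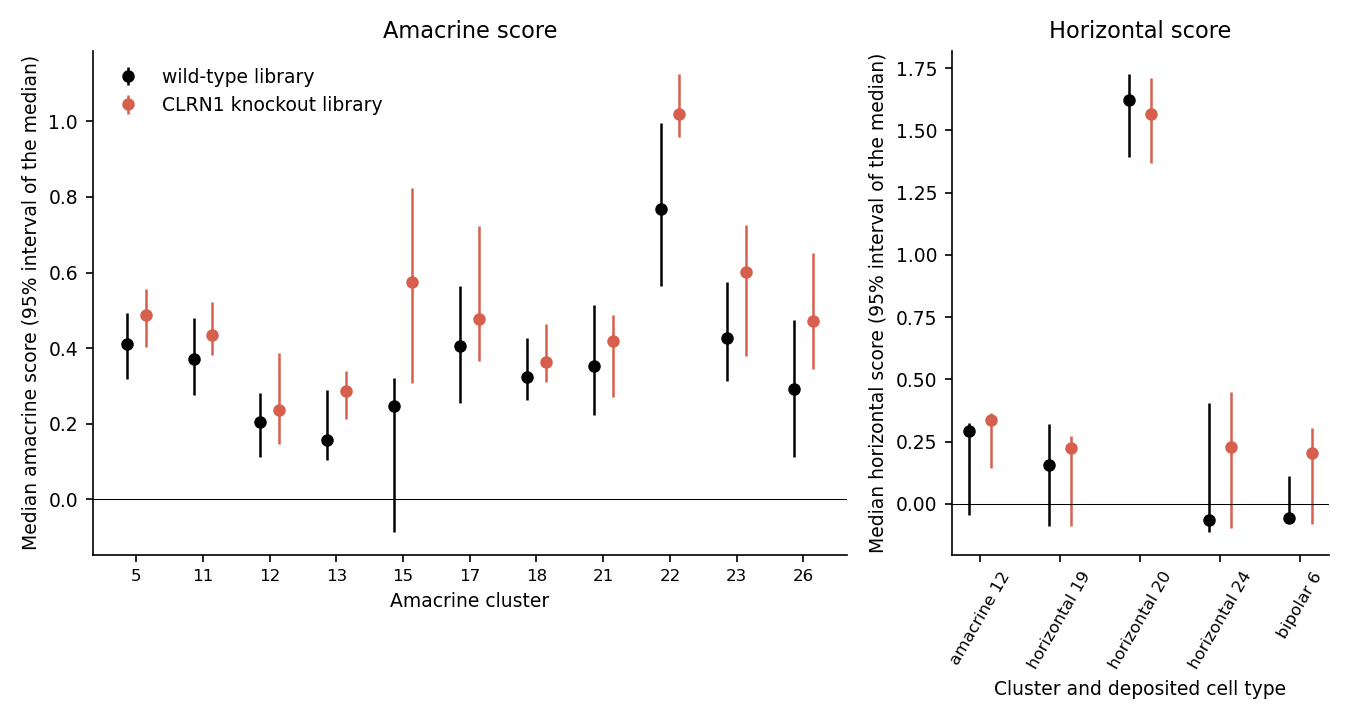
Median amacrine score of the 11 amacrine clusters (left) and median horizontal score of 5 clusters (right) in the wild-type (black) and CLRN1 knockout (red) libraries, in log-scale score units, with 95% intervals of the median. On the left the knockout median, at unmatched depth, is the higher in all 11 clusters, with overlapping intervals, and on the right cluster 20 lies at 1.62 and 1.57.

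Amacrine nuclei of the knockout library were also more often above 0 in the horizontal score. The wild-type share was 15.7% (12.8 to 19.0%) against 24.7% (20.9 to 28.9%) in the knockout library, and 7.57 percentage points higher within UMI bins, in 3 of 3 bins. In rods, the background, it was 8.40% and 11.0%, with intervals apart, but there the order turned with depth. The knockout share of rods was the lower from 1000 to under 2000 UMIs (10.9% against 5.47%) and from 2000 to under 4000 UMIs (24.5% against 18.5%), and the higher from 4000 UMIs (33.1% against 40.9%). Among the 26 clusters only cluster 5 had intervals apart, where 128 wild-type nuclei gave 11.7% (6.71 to 18.6%) and 119 knockout nuclei 30.3% (22.2 to 39.4%), and it was higher in each of its 3 bins. Without cluster 5 the difference over amacrine nuclei was 5.96 points, and without cluster 13 it was 7.11 points, and in both cases the intervals overlapped. The median horizontal score of amacrine nuclei went the other way, at −0.11 and −0.13, with intervals apart, at the median depths of 2522.5 and 3217 UMIs. Within UMI bins this difference was −0.0096 against −0.019 in all, lower in 3 of 3 bins.

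In horizontal nuclei no difference in the horizontal score had intervals apart, over the type or in any of its 3 clusters. Its median was 0.32 (0.15 to 0.46) in 84 wild-type and 0.51 (0.33 to 1.11) in 97 knockout nuclei, and within UMI bins the difference was −0.09. The largest cluster of the type differed: it was cluster 19 in the wild-type library (41 nuclei, with 23 in cluster 20) and cluster 20 in the knockout library (46 nuclei, with 29 in cluster 19). The amacrine score of horizontal nuclei was 0.07 (−0.08 to 0.14) and 0.11 (0.05 to 0.17). In bipolar nuclei the median horizontal score was −0.05 (−0.07 to 0.11) for wild-type nuclei against 0.20 (−0.08 to 0.30) for knockout nuclei, and the share above 0 was 41.5% and 55.0%, with overlapping intervals for both. In Müller glia the share above 0 in the amacrine score was 22.9% and 44.4%, at 1622 and 2597 UMIs, again with overlapping intervals.

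Over all nuclei the share above 0.5 in the amacrine score was 5.37% (187 nuclei) in the wild-type and 6.74% (206 nuclei) in the knockout library. In the horizontal score it was 3.56% (124 nuclei) and 4.09% (125 nuclei), and the intervals overlapped for both scores. With rods left out, the shares were 14.4% and 19.2% in the amacrine score and 5.53% and 9.01% in the horizontal score, with intervals apart, at median depths of 2281 and 3093 UMIs. Cluster 20 gave 20 of the 69 wild-type and 45 of the 90 knockout nuclei in the horizontal score. Leaving out cluster 20 brought the wild-type share of this score to 4.0% (2.98 to 5.26%). The knockout share was then 4.72% (3.46 to 6.27%), and the intervals overlapped. The shares for the amacrine score were then 14.6% and 20.1%, with intervals apart. The part of depth in these differences was not tested.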

How the data were processed

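Per the labels, nuclei were isolated from frozen retina and sequenced as 3′ droplet libraries. Cell Ranger 7.0, Seurat 4.3.0 and the build OryCun2.0 are listed, with no roles, in the submitters' processing notes. For the filters on nuclei, and for any removal of doublets or free RNA, the sources used here state nothing. The authors deposited a UMI count, a mitochondrial percent, 9 module scores, a cluster, a cell type and embedding coordinates for each nucleus. The score columns, per the file headers, have the form that Seurat's module scoring writes. The deposited matrix of counts was not used here, since it carries numbers in place of gene and nucleus names.

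The library of each nucleus was read from the deposited table. Medians have 95% intervals from order statistics, and shares have exact Clopper-Pearson 95% intervals. Nuclei are not replicates, so these cover counting error only, and values are called apart where intervals do not overlap, which is stricter than a direct comparison. Differences between libraries are knockout minus wild-type medians, also within UMI bins divided at 1000, 2000 and 4000, using bins that held 10 or more nuclei of both libraries, weighted by the smaller number. Thinning to 1 depth was not possible with the table of nuclei, and no doublet caller was run. The scripts were tested on simulated data. The rule for named genes was to name none. The scores, limits and comparisons were chosen with earlier results of these data known. Alternatives were other limits (0.25, 1 and the 95th percentile of rods), nuclei from 1000 UMIs, under 1% mitochondrial UMIs or other than rods, means, other bin rules, each library alone and leaving out clusters in turn. A limit of 0, nuclei other than rods without cluster 20, and the shares of interneuron nuclei above 0 were added after seeing the data. Tables were made with pandas 2.3.3 and numpy 2.4.6 under Python 3.11.15, intervals with SciPy 1.17.1, and plots with matplotlib 3.10.9.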

Additional observations from a re-analysis of the deposited data

How the results depend on the processing

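Which clusters carried a score depended on the limit. With a limit of 0.25, or the 95th percentile of rods, 9 clusters carried the amacrine score alone, 2 the horizontal score alone and 15 neither, against 1, 1 and 24 at 0.5. With a limit of 1, 0 clusters carried the amacrine score alone. With a limit of 0 these were 10 clusters for the amacrine score alone, 3 for both and 12 for neither. In the knockout library alone, 3 clusters carried the amacrine score alone at 0.5. The number of clusters above 0 in the horizontal score was 4 by medians and 9 by means.

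Means also turned the sign of the amacrine score of clusters 9 (0.00084) and 24 (0.016) and of the horizontal score of bipolar nuclei, which are cluster 6 (0.16), of Müller glia, which are cluster 8 (0.036), and of clusters 9 (0.041), 10 (0.057) and 13 (0.0082), as a mean takes in the tail of high nuclei that a median does not. The median intervals of cluster 24 in the amacrine score and of bipolar nuclei in the horizontal score held 0. The difference in the horizontal score of amacrine nuclei was 0.013 by means.

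The differences in shares of nuclei, knockout minus wild-type in percentage points, moved with the limit and with the nuclei counted. For the amacrine score it was 4.86 among nuclei other than rods, and 5.52 among those without cluster 20, against 1.37 in all. For the horizontal score it was −0.851 at a limit of 0.25, 3.42 at 0 and 3.48 among nuclei other than rods (0.719 without cluster 20), against 0.529. For both scores it was 0.465 at 0.25 and 2.81 at 0, against 0.106. The cause was not tested.

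The amacrine score of amacrine nuclei was higher in the knockout library under all 17 alternatives run, by 0.06 to 0.11. The horizontal score of horizontal nuclei was higher in 6 of 9, from −0.11 to 0.73. The runs below 0 were those within UMI bins, where the knockout median was the higher in 0 of 2 bins (weighted difference −0.09). The 17 include leaving out each of the 11 amacrine clusters in turn. As the knockout median was the higher in each cluster, those runs could hardly change the direction, and all alternatives use the same libraries. The count of amacrine clusters with the higher knockout median was 11 from 1000 UMIs, 9 at 2000 to under 4000 UMIs, 10 under 1% mitochondrial UMIs and 10 by means. No paired analysis was possible because each genotype was 1 library and no comparison was tested. A median of 1303.5 UMIs per nucleus limits the shallow nuclei, in which few genes of a list can be detected.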
